A study of Mus musculus with 18 samples.

Results

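The levels of 10 genes that defend cells against oxidants were followed in the ileum of mice that overexpress Ppara in the intestinal epithelium. They are Gpx1, Gpx2, Gpx4, Prdx1, Sod1, Sod2, Nqo1, Hmox1, Txnrd1 and Srxn1. The 10 genes were chosen by symbol, and all 10 were found among the 55487 genes counted. All 10 also passed the expression filter, so each was among the 12645 protein-coding genes tested. Whole-thickness ileum was sequenced from 18 mice, 6 per genotype. By the study's description, all 18 mice carried the CAG-Ppara,-EGFP transgene at the Col1a1 locus on a C57BL6/J background. The labels call the controls wt and do not give their transgene copies. All mice were 8 to 13 weeks old, ate chow and received tamoxifen at 100 mg/kg daily for 3 days. Tissue was taken 2 weeks after the last dose. IEC-Ppara heterozygous mice carried 1 transgene copy and IEC-Ppara homozygous mice 2 copies, both with Villin-CreERT2, which permits recombination in epithelial cells. Control mice lacked Villin-CreERT2. The presence of Cre and the presence of the recombined transgene therefore cannot be told apart in the comparisons with controls. The Villin promoter acts in the epithelium, whereas the RNA came from all layers of the gut wall, so a change confined to epithelium would be diluted in these libraries.

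Superoxide dismutases convert superoxide to hydrogen peroxide, which glutathione peroxidases, peroxiredoxins and catalase then remove. Thioredoxin reductase and sulfiredoxin return the peroxiredoxin cycle to its reduced state, while Nqo1 and Hmox1 act on quinones and heme. NRF2, encoded by Nfe2l2, is the transcription factor that raises many of these enzymes under oxidant stress by binding antioxidant response elements, and KEAP1 holds it in check by targeting it for degradation. PPARα drives fatty acid oxidation in mitochondria and peroxisomes, and the peroxisomal branch yields hydrogen peroxide, so the comparison asks whether the antioxidant genes were altered in a tissue given more Ppara.

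Library depth ranged from 38528522 to 50376371 counted reads. Ppara itself stood at 38.1 ± 8.40 CPM (SD, n = 6) in controls, 141 ± 35.4 CPM in heterozygotes and 216 ± 35.5 CPM in homozygotes, where CPM is the read count scaled to a common total of counted reads per library. The ranges of the controls and of either IEC-Ppara group did not overlap. Those of the 2 IEC-Ppara groups did, with heterozygotes up to 196 CPM and homozygotes from 184 CPM. The Ppara log2 fold change of homozygotes against heterozygotes was 0.59 (SE 0.17, edgeR adjusted p = 0.485), so the dose difference was not called. Ileal identity was clear in every library, with Fabp6, the ileal bile acid-binding protein, between 1914 and 5489 CPM and Slc10a2, the ileal bile acid transporter, between 355 and 680 CPM. The depth of gut wall and lymphoid tissue varied among libraries. The summed level of 8 smooth muscle genes ran from 633 to 5849 CPM in controls, 799 to 4309 CPM in heterozygotes and 3965 to 9276 CPM in homozygotes. The summed level of 6 B cell genes was highest in controls 2 and 3, heterozygous 2 and homozygous 1, and ran from 6.74 to 361 CPM over all libraries. The median log2 fold change against controls was 0.59 for the smooth muscle genes, 0.37 for 6 fibroblast genes and -3.11 for the B cell genes in homozygotes, and -0.22, -0.11 and -1.50 in heterozygotes, with 0 genes of these lists called by edgeR.

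None of the 10 antioxidant genes was called different between genotypes. With edgeR's quasi-likelihood test and Benjamini-Hochberg adjustment over all genes tested, 52 genes (0.411% of those tested) had an adjusted p under 0.05 between homozygotes and controls, 37 (0.293%) between heterozygotes and controls, and 1 (0.00791%) between the IEC-Ppara genotypes. The 10 antioxidant genes gave 0 calls in all 3 comparisons. DESeq2, which called more genes over all those tested, also gave 0. At an unadjusted p under 0.05, Sod1 alone passed in homozygotes against controls (background 8.06%) and alone passed in heterozygotes against controls (background 5.29%), and none passed between homozygotes and heterozygotes (background 7.61%). Every antioxidant gene had overlapping CPM ranges in each of the 3 comparisons. Ranges that did not overlap were rare among all tested genes. They made up 0.854% for homozygotes against controls, 0.467% for heterozygotes against controls and 0.269% for homozygotes against heterozygotes. Overlap in all 10 genes thus does not set them apart from the rest.

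Fitted log2 fold changes of the 10 genes between homozygotes and controls ran from -0.09 for Nqo1 to 0.75 for Hmox1, with 7 above 0 and a median of 0.06. Over all genes tested, 48.1% were above 0 and the median was -0.0048. Between heterozygotes and controls the log2 fold changes of the 10 genes ran from -0.34 for Hmox1 to 0.32 for Sod1, with 7 above 0 and a median of 0.02. Over all genes tested, 47.5% were above 0 and the median was -0.0058. These comparisons share the same 6 control libraries.

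**Figure D1:**
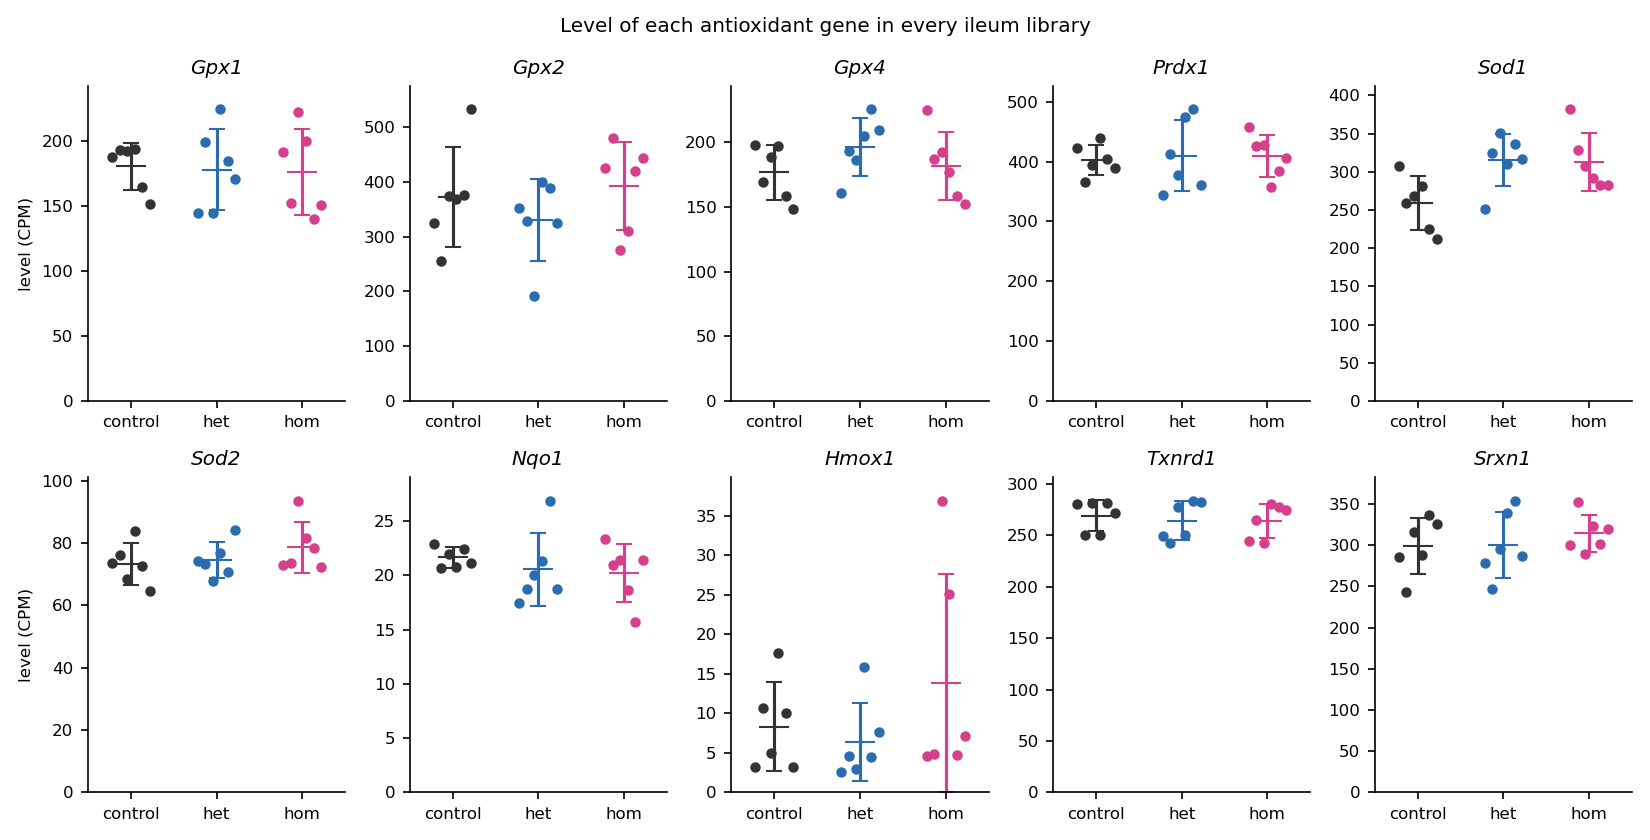
Each panel plots 1 gene, with its level in CPM on a linear axis from 0 and a point for each of the 18 libraries, grouped as control, heterozygous (het) and homozygous (hom). Horizontal marks and bars are the mean and SD of 6 mice. The groups overlap in all 10 panels, Sod1 has means of 259 CPM in controls, 315 CPM in heterozygotes and 313 CPM in homozygotes, and Hmox1 is spread from 2.57 to 36.9 CPM.

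Sod1 encodes the copper and zinc superoxide dismutase of the cytosol (ENSMUSG00000022982, GRCm38 chr16:90220754-90226329, plus strand). Its lowest, median and highest levels were 213, 264 and 307 CPM in controls, 252, 321 and 351 CPM in heterozygotes, and 282, 300.2 and 382 CPM in homozygotes. Of the 6 heterozygous libraries, 5 lay above the highest control, and of the 6 homozygous libraries 3 did, so the groups still overlapped. The log2 fold change was 0.32 (SE 0.10, 95% interval 0.11 to 0.53) in heterozygotes, at an unadjusted p of 0.00552 and an edgeR adjusted p of 0.475. In homozygotes it was 0.28 (SE 0.10, 95% interval 0.07 to 0.49), at an unadjusted p of 0.0126 and an edgeR adjusted p of 0.448. A two-sided exact permutation test on mean CPM gave p = 0.026 for heterozygotes and p = 0.0238 for homozygotes, neither adjusted. Sod1 was thus the antioxidant gene with the lowest p in both comparisons with controls, at 1.24-fold in heterozygotes and 1.21-fold in homozygotes, and it failed the correction over all genes. Between homozygotes and heterozygotes the log2 difference was -0.04 (95% interval -0.25 to 0.17). Without the 4 libraries richest in B cell transcripts, the log2 fold change was 0.33 in heterozygotes at an unadjusted p of 0.0136 and 0.23 in homozygotes at an unadjusted p of 0.0749 (edgeR).

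Sod2 encodes the manganese superoxide dismutase of the mitochondrial matrix (ENSMUSG00000006818, GRCm38 chr17:13006846-13040063, plus strand). Its lowest, median and highest levels were 64.7, 73.2 and 84.0 CPM in controls, 67.7, 73.7 and 84.2 CPM in heterozygotes, and 72.2, 76.0 and 93.6 CPM in homozygotes. The highest homozygous library was replicate 3, which also had the highest smooth muscle, fibroblast and macrophage scores of all 18 libraries. The log2 fold change was 0.11 (SE 0.06, 95% interval -0.02 to 0.24) in homozygotes and 0.06 (SE 0.06, 95% interval -0.07 to 0.18) in heterozygotes, with edgeR adjusted p of 0.684 and 1.00. The upper limits correspond to 1.18-fold and 1.14-fold.

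The 3 glutathione peroxidases below are selenoenzymes that reduce peroxides with glutathione. Gpx1 is the widespread cytosolic enzyme (ENSMUSG00000063856, GRCm38 chr9:108338903-108340343, plus strand). Its lowest, median and highest levels were 151, 190.2 and 194 CPM in controls, 145, 178 and 224 CPM in heterozygotes, and 140.2, 172 and 222 CPM in homozygotes. The SD was 18.0 CPM in controls, 31.2 CPM in heterozygotes and 33.0 CPM in homozygotes around means of 181, 178 and 176 CPM. Gpx1 had log2 fold changes of -0.04 (SE 0.12, 95% interval -0.28 to 0.21) in homozygotes and 0.0098 (SE 0.12, 95% interval -0.23 to 0.25) in heterozygotes.

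Gpx2, the glutathione peroxidase typical of gut epithelium (ENSMUSG00000042808, GRCm38 chr12:76792333-76795554, minus strand), ranged more widely. Its lowest, median and highest levels were 256, 371 and 533 CPM in controls, 192, 340 and 399 CPM in heterozygotes, and 276, 423 and 480.2 CPM in homozygotes. Heterozygous 3 stood apart below the other 5 heterozygotes, and control 6 was the highest library of all. The log2 fold change was 0.08 (SE 0.20, 95% interval -0.35 to 0.50) in homozygotes, -0.15 (SE 0.20, 95% interval -0.57 to 0.27) in heterozygotes and 0.22 (SE 0.20, 95% interval -0.20 to 0.65) between homozygotes and heterozygotes. The edgeR adjusted p values were 0.961, 1.00 and 0.761. A named pseudogene of Gpx2 had a mean of 10.7 CPM. Because only uniquely mapped reads were counted, reads that match both copies equally well are in neither count.

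Gpx4, which reduces lipid hydroperoxides within membranes (ENSMUSG00000075706, GRCm38 chr10:80047166-80056439, plus strand), had lowest, median and highest levels of 148, 179 and 198 CPM in controls, 161, 199 and 226 CPM in heterozygotes, and 152, 182 and 225 CPM in homozygotes. Of the 6 heterozygotes, 3 lay above the highest control. The log2 fold change was 0.19 (SE 0.10, 95% interval -0.03 to 0.40) in heterozygotes at an edgeR adjusted p of 1.00, and 0.05 (SE 0.10, 95% interval -0.17 to 0.26) in homozygotes at 0.951. Of its 2 named pseudogenes, the higher had a mean of 14.4 CPM.

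The peroxiredoxin cycle was represented by Prdx1, a cytosolic peroxiredoxin that removes hydrogen peroxide (ENSMUSG00000028691, GRCm38 chr4:116685544-116700822, plus strand), by Srxn1, the sulfiredoxin that rescues over-oxidised peroxiredoxins (ENSMUSG00000032802, GRCm38 chr2:152105516-152111376, plus strand), and by Txnrd1, the cytosolic thioredoxin reductase (ENSMUSG00000020250, GRCm38 chr10:82833951-82897712, plus strand). Prdx1 had lowest, median and highest levels of 367, 399 and 439 CPM in controls, 345, 396 and 487 CPM in heterozygotes, and 357, 416 and 458 CPM in homozygotes. Its mean was 403 CPM in controls and 410 CPM in both IEC-Ppara groups, with log2 fold changes of 0.03 (SE 0.10, 95% interval -0.17 to 0.23) in homozygotes and 0.06 (SE 0.10, 95% interval -0.14 to 0.26) in heterozygotes.

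Srxn1 had lowest, median and highest levels of 243, 302 and 336 CPM in controls, 247, 291 and 354 CPM in heterozygotes, and 289, 311 and 352 CPM in homozygotes. The homozygous libraries held the narrowest range, with an SD of 22.4 CPM beside 34.2 CPM in controls. Its log2 fold change was 0.07 (SE 0.11, 95% interval -0.16 to 0.30) in homozygotes and 0.04 (SE 0.11, 95% interval -0.19 to 0.27) in heterozygotes.

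Txnrd1 varied least between mice of a genotype among the 10 genes. Its lowest, median and highest levels were 250.02, 276 and 282 CPM in controls, 243, 264 and 283 CPM in heterozygotes, and 242, 269.6 and 279.9 CPM in homozygotes. The log2 fold change was -0.03 (SE 0.08, 95% interval -0.19 to 0.13) in homozygotes and 0.0028 (SE 0.08, 95% interval -0.16 to 0.16) in heterozygotes. In fold terms the intervals ran from 0.878 to 1.10 and from 0.896 to 1.12, the narrowest of the 10 genes after Sod2.

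Nqo1, the quinone oxidoreductase often read as an NRF2 reporter (ENSMUSG00000003849, GRCm38 chr8:107388225-107403206, minus strand), was expressed at a lower level. It had lowest, median and highest levels of 20.7, 21.5 and 22.9 CPM in controls, 17.4, 19.4 and 26.9 CPM in heterozygotes, and 15.7, 21.2 and 23.4 CPM in homozygotes. The controls were tight, with an SD of 0.933 CPM, and the IEC-Ppara groups were wider, at 3.37 CPM and 2.69 CPM. Its log2 fold change was -0.09 (SE 0.11, 95% interval -0.34 to 0.15) in homozygotes and -0.04 (SE 0.11, 95% interval -0.28 to 0.20) in heterozygotes. The upper limit of the interval in homozygotes corresponded to 1.11-fold.

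Hmox1 encodes the inducible heme oxygenase (ENSMUSG00000005413, GRCm38 chr8:75093621-75100589, plus strand). Of the 10 genes it had the lowest mean level per annotated exon length (FPKM) in controls and varied most between mice of a genotype. It rested on 122 to 1621 reads per library. It had lowest, median and highest levels of 3.20, 7.51 and 17.7 CPM in controls, 2.57, 4.53 and 15.8 CPM in heterozygotes, and 4.61, 5.99 and 36.9 CPM in homozygotes. The homozygous mean of 13.9 CPM was carried by replicates 3 and 4, at 36.9 and 25.0 CPM, and the other 4 homozygotes were at 7.09 CPM or lower, within the control range. The log2 fold change was 0.75 (SE 0.59, 95% interval -0.49 to 1.99) in homozygotes, -0.34 (SE 0.59, 95% interval -1.58 to 0.90) in heterozygotes, and 1.09 (SE 0.59, 95% interval -0.16 to 2.34) between homozygotes and heterozygotes. The edgeR adjusted p values were 0.780, 1.00 and 0.645. Without homozygous replicate 3, the log2 fold change of homozygotes against controls was 0.19, without homozygous replicate 4 it was 0.49, and without control replicate 4 it was 1.09. With sex as a covariate it was 0.36 in homozygotes and -0.64 in heterozygotes. The heterozygous value ran from -0.84 without heterozygous replicate 4 to 0.0045 without control replicate 4, and that between homozygotes and heterozygotes was 0.53 without homozygous replicate 3. The 95% interval for homozygotes ran from 0.710-fold to 3.96-fold, the widest of the 10 genes.

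**Figure D2:**
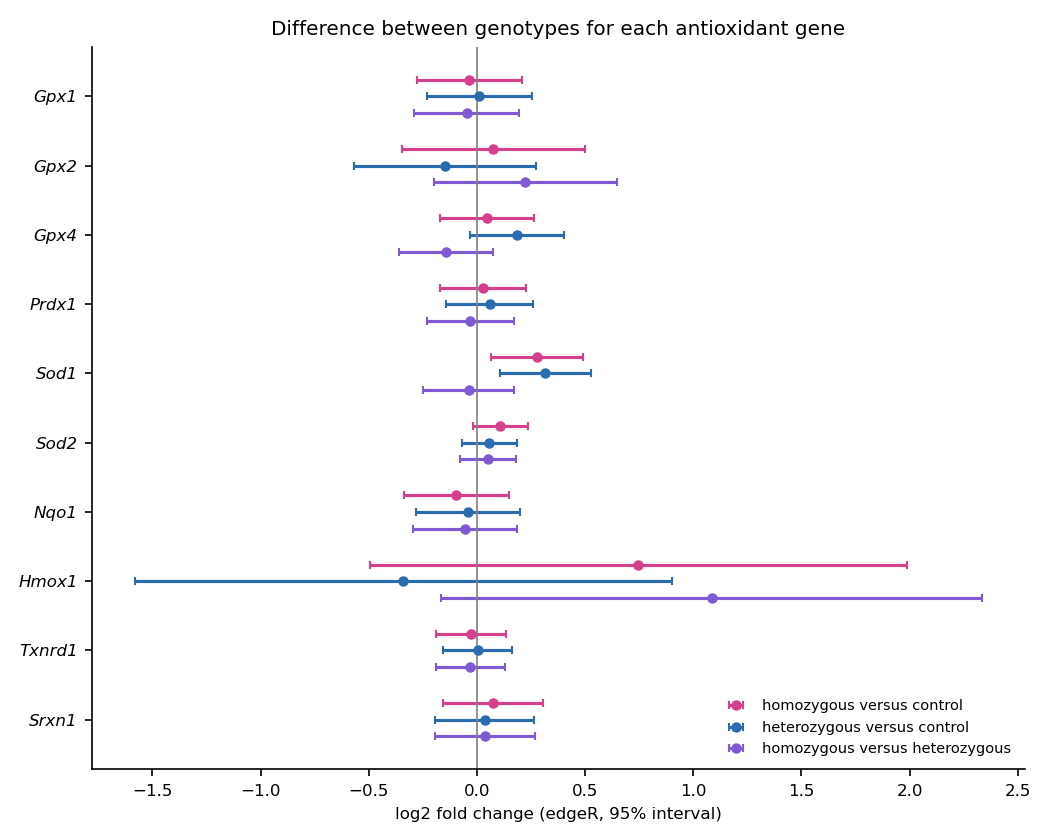
Points are edgeR log2 fold changes of each gene in the 3 genotype comparisons and bars are 95% intervals, on a log2 axis with a line at 0. Only the Sod1 intervals against controls lie wholly above 0 (0.07 to 0.49 in homozygotes, 0.11 to 0.53 in heterozygotes), before adjustment over all genes, and the Hmox1 intervals are the widest.

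Levels of different genes were compared as FPKM in the controls, which divides CPM by the length of all annotated exons of a gene. That length was 1441 bases for Gpx1, 3970 for Sod1 and 10008 for Sod2. The order below therefore depends on annotated exon length as well as on reads. By CPM, for example, Sod1 stood above Gpx1 in controls, at means of 259 and 181 CPM. Prdx1 was highest at 132 ± 8.34 FPKM (SD, n = 6), followed by Gpx1 at 125 ± 12.5 FPKM, Gpx2 at 116 ± 28.3 FPKM, Srxn1 at 106 ± 12.1 FPKM and Gpx4 at 102 ± 12.2 FPKM. The ranges of neighbours among these 5 genes overlapped, so the order of neighbours was not resolved. The lowest control for Prdx1, at 120.5 FPKM, lay above the highest for Srxn1 (119.3 FPKM) and for Gpx4 (114.9 FPKM). Below them came Sod1 at 65.2 ± 8.84 FPKM, Txnrd1 at 38.0 ± 2.16 FPKM and Nqo1 at 13.9 ± 0.601 FPKM, each separated from both neighbours without overlap. Sod2 at 7.32 ± 0.663 FPKM and Hmox1 at 4.74 ± 3.22 FPKM overlapped. The top 5 genes each exceeded the FPKM of at least 96.8% of all tested genes, whereas Hmox1 exceeded 42.8%.

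The spread between mice also differed among the 10 genes. The SD within genotypes on the log2 CPM scale was 0.09 for Txnrd1, lower than that of all but 6.82% of tested genes, and 0.13 for Sod2. Prdx1, Srxn1, Nqo1, Sod1 and Gpx4 lay between 0.15 and 0.18, just under the median of 0.19 over all tested genes. Gpx1 at 0.23 and Gpx2 at 0.35 lay above it. Hmox1 at 1.11 exceeded 98.5% of tested genes.

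Short stretches of promoter sequence show which of these genes carry the letters of an antioxidant response element near an annotated start. RefSeq promoter windows of the GRCm38.p6 assembly, from 250 bases before to 50 bases after each annotated start, were found for 9 of the 10 genes, in 14 windows. Hmox1 was not matched. The core searched was TGACNNNGC on both strands, and 4 of the 14 windows, from 4 of the 9 genes, held it, beside 12.4% of all 32851 windows and 14.0% of the 27025 genes with a window. Each match is shown 5′ to 3′ on the gene's own strand, with the core in capitals, where it reads as the reverse complement because all 4 matches lie on the opposite strand.
Prdx1, chr4:116685456-116685484, plus strand: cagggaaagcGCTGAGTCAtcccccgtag
Sod1, chr16:90220696-90220724, plus strand: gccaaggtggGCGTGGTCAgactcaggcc
Srxn1, chr2:152105542-152105570, plus strand: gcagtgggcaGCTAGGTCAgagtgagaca
Txnrd1, chr10:82859104-82859132, plus strand: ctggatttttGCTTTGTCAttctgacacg
The Prdx1 core begins 133 bases and that of Sod1 56 bases before the RefSeq start of its window, and that of Srxn1 lies 28 bases after it. Txnrd1 has 3 windows, and its core begins 92 bases before an internal start, which lies 25255 bases downstream of the first base of the gene span given above. Of these 4 genes, Sod1 had the 2 unadjusted p values under 0.05 and the other 3 had log2 fold changes between -0.03 and 0.07 against controls. The direct repeat AGGTCANAGGTCA, the idealised element bound by PPAR and RXR, was in 0 of the 14 windows and in 0.0396% of all windows. A letter match describes the sequence and shows no binding, and enhancers outside these windows were not searched.

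Across the 18 libraries the 10 genes did not move as 1 block. Of the 45 pairs, 28 had a Pearson's r above 0 and 17 below, with a median of 0.11, all on log2 CPM and given as description. Gpx4 with Sod1 (r = 0.79), Sod2 with Hmox1 (0.78), Prdx1 with Nqo1 (0.70) and Gpx1 with Hmox1 (0.65) were the closest pairs. Gpx1 with Txnrd1 was the most opposed, at -0.42. After each genotype's mean was removed, Gpx4 with Sod1 stood at 0.86 and Sod2 with Hmox1 at 0.78.

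The tested genes whose levels tracked each antioxidant gene most closely, by Pearson's r of log2 CPM over the 18 libraries, differed from gene to gene. For Sod1 they were Ppcs, an enzyme of coenzyme A synthesis (r = 0.93), and Acaa2 and Acads, enzymes of mitochondrial fatty acid oxidation (0.92 and 0.92). These stood at 0.90, 0.87 and 0.87 once genotype means were removed. For Hmox1 they were the macrophage gene Cd68, Anxa1 and the complement gene C1ra, all at 0.96. For Sod2 they were Tnfrsf11b (0.96), Dpysl5 (0.94) and Cavin2 (0.93). Gpx1 was closest to Cyba, a subunit of NADPH oxidase (0.88), Npc2 and Abhd16a (both 0.88). Gpx2 was closest to the protease gene Prss27 (0.91), Plac8 (0.84) and Gsr, the glutathione reductase that regenerates the substrate of the peroxidases (0.83).

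For Gpx4 the nearest genes were Ppdpf (0.90), Vat1 (0.89) and Cenpv (0.88), and for Prdx1 they were Bud31 (0.93), Gng5 (0.92) and 1810037I17Rik (0.91). Srxn1 was nearest to Ywhaz, Anxa2 and Prss30 (all 0.88), Nqo1 to Gltp (0.87), Vbp1 (0.79) and Dazap2 (0.78), and Txnrd1 to Cttn (0.81) and Ap3m1 (0.77). None of the nearest genes was itself one of the 10. The libraries share depth, dissection and composition, which enter every one of these values.

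Levels of Hmox1 and Sod2 followed the macrophage and dendritic cell and fibroblast markers, and not the B cell markers (r = -0.06 and -0.18). A score for each of 10 marker lists was taken as the mean log2 CPM of its genes, and the 10 genes were each set against the 10 scores over 18 libraries, giving 100 relations with permutation p values adjusted by Benjamini-Hochberg. Hmox1 against 8 macrophage and dendritic cell genes gave Pearson's r = 0.95 (permutation p = 1e-05, the smallest that 100000 permutations can give, adjusted p = 0.001) and Spearman's rho = 0.89 (permutation p = 1e-05, adjusted p = 0.001). It was 0.91 without the 2 libraries farthest from the median score, and 0.98, 0.87 and 0.99 within controls, heterozygotes and homozygotes. The 4 libraries with the most Hmox1, namely homozygous 3 and 4, control 4 and heterozygous 4, were also the 4 with the highest macrophage and dendritic cell scores. None of the 8 marker genes was at 0 in any library, and their summed level ran from 325 to 594 CPM in controls, 304 to 485 CPM in heterozygotes and 310.2 to 692 CPM in homozygotes. In whole tissue, more cells of a type and more RNA per cell cannot be told apart, and the part of these cells in the level of Hmox1 was not tested.

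Hmox1 also followed the fibroblast score (r = 0.82, permutation p = 3e-05, adjusted p = 0.00133, rho = 0.82, permutation p = 6e-05, adjusted p = 0.003), at 0.80 without the 2 farthest libraries. It ran against the goblet cell score (r = -0.73, permutation p = 0.0007, adjusted p = 0.01, rho = -0.76, permutation p = 0.00043, adjusted p = 0.0107), at -0.58 without the 2 farthest libraries. Sod2 was nearest to the fibroblast score (r = 0.83, permutation p = 4e-05, adjusted p = 0.00133, rho = 0.77, permutation p = 0.00026, adjusted p = 0.00867), at 0.81 without the 2 farthest libraries and 0.88, 0.63 and 0.95 within controls, heterozygotes and homozygotes. The relation of Sod2 to the ileal epithelium score was -0.75 (permutation p = 0.00042, adjusted p = 0.007) by Pearson and -0.60 (permutation p = 0.0106, adjusted p = 0.0882) by Spearman, with -0.46 without the 2 farthest libraries and -0.77, -0.25 and -0.89 within controls, heterozygotes and homozygotes. Sod2 also followed the smooth muscle score (r = 0.75, permutation p = 0.00041, adjusted p = 0.007, rho = 0.68, permutation p = 0.00258, adjusted p = 0.036, 0.73 without the 2 farthest). For Hmox1 the relation to the smooth muscle score passed the adjustment by Spearman (rho = 0.73, permutation p = 0.00108, adjusted p = 0.0216) and missed it by Pearson (r = 0.61, permutation p = 0.00761, adjusted p = 0.0589). The red blood cell score passed for neither gene, at r = 0.62 for Hmox1 (permutation p = 0.00709, adjusted p = 0.0589) and 0.56 for Sod2 (permutation p = 0.0163, adjusted p = 0.0961). Sod2 stood at r = 0.78 with the macrophage and dendritic cell score (permutation p = 0.00017, adjusted p = 0.00425, rho = 0.67, permutation p = 0.00288, adjusted p = 0.036, 0.60 without the 2 farthest), and Hmox1 at r = -0.67 with the ileal epithelium score (permutation p = 0.00208, adjusted p = 0.026, rho = -0.65, permutation p = 0.00431, adjusted p = 0.0479, -0.45 without the 2 farthest and -0.78, -0.14 and -0.81 within genotypes). Median log2 fold changes of the marker lists against controls stood beside those of both genes. In homozygotes, where Hmox1 was at 0.75 and Sod2 at 0.11, the smooth muscle genes were at 0.59, the fibroblast genes at 0.37 and the macrophage and dendritic cell genes at 0.04. In heterozygotes, where Hmox1 was at -0.34 and Sod2 at 0.06, the same lists were at -0.22, -0.11 and -0.16, and the part of these cells in these differences was not tested. Gpx1 followed the macrophage and dendritic cell score (r = 0.65, permutation p = 0.00383, adjusted p = 0.0426, rho = 0.70, permutation p = 0.00184, adjusted p = 0.0307), at 0.53 without the 2 farthest libraries and 0.44, 0.82 and 0.73 within genotypes.

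**Figure D3:**
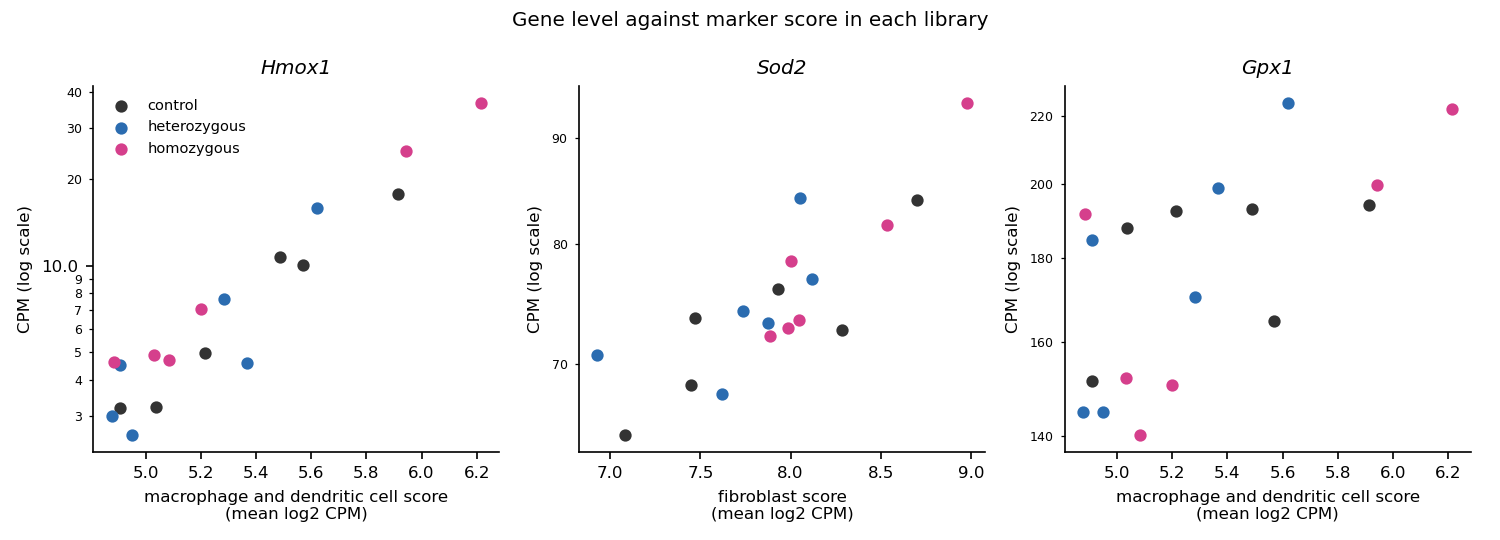
Each point is 1 library, with the gene's CPM on a log axis against a marker score (mean log2 CPM), coloured by genotype. Hmox1 climbs with the macrophage and dendritic cell score in all 3 genotypes (r = 0.95), Sod2 with the fibroblast score (r = 0.83), and Gpx1 more loosely with the macrophage and dendritic cell score (r = 0.65).

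The other 7 genes had no relation to any marker list that passed the adjustment. For Sod1 the relations ran from -0.32 for crypt stem and progenitor genes to 0.35 for red blood cell genes, and that with the smooth muscle score was 0.11. Gpx4 and Prdx1 each stood at 0.61 with the red blood cell score, at adjusted p of 0.0589 by permutation. For Srxn1 the relation to the B cell score was -0.58 (permutation p = 0.0119, adjusted p = 0.0756).

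**Figure D4:**
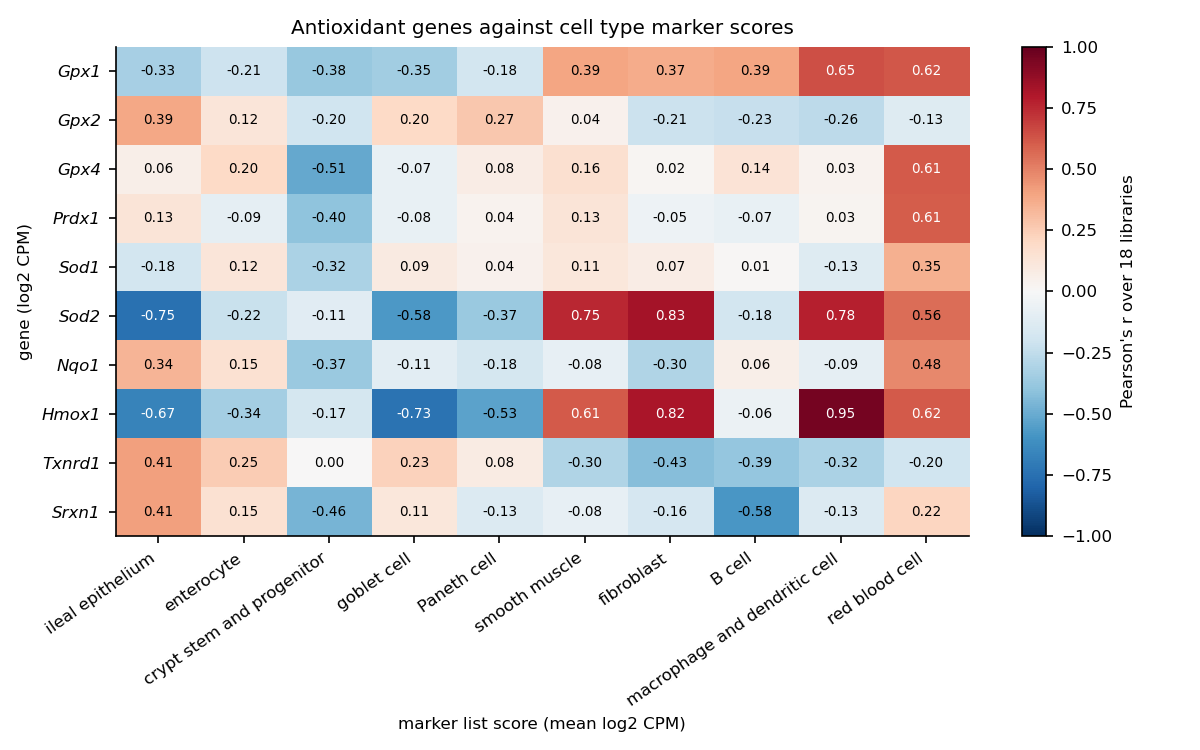
Cells give Pearson's r between the log2 CPM of each antioxidant gene (rows) and the score of each marker list (columns) over 18 libraries, from -1 in blue to 1 in red. The strongest values are in the Hmox1 and Sod2 rows, such as 0.95 for Hmox1 with macrophage and dendritic cell genes.

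The wider antioxidant network was examined through 8 lists of 76 other genes, of which 74 were tested. Of these 74, 0 were called between homozygotes and controls, 1 was called higher between heterozygotes and controls, and 0 between homozygotes and heterozygotes. The shares called over all tested genes were 0.411%, 0.293% and 0.00791%. At an unadjusted p under 0.05 the counts were 3 higher and 1 lower, 5 higher and 3 lower, and 0 higher and 2 lower. These are 5.41%, 10.8% and 2.7% of the 74, beside 8.06%, 5.29% and 7.61% of all tested genes. With DESeq2, 2 were called between homozygotes and controls (Akr1b8 and Cat), 1 between heterozygotes and controls (Cat) and 0 between homozygotes and heterozygotes. DESeq2 also called more genes than edgeR over all those tested in each comparison, with the counts given in the closing section. The median log2 fold change of the 74 genes was -0.0010 in homozygotes and 0.03 in heterozygotes against controls.

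The called gene was Cat, the peroxisomal catalase that degrades hydrogen peroxide. Cat stood at 239 ± 30.4 CPM (SD, n = 6) in controls, 331 ± 55.8 CPM in heterozygotes and 312 ± 34.3 CPM in homozygotes. Every heterozygous library (283 to 421 CPM) lay above every control (209 to 270.1 CPM), and the homozygous range of 263 to 349 CPM overlapped the controls. Its log2 fold change was 0.50 (SE 0.10, edgeR adjusted p = 0.0373) in heterozygotes and 0.39 (SE 0.10, edgeR adjusted p = 0.142) in homozygotes, and the difference between homozygotes and heterozygotes was -0.11 (SE 0.10, edgeR adjusted p = 0.758). The heterozygous call held in 10 of 26 other fits and was lost in the rest, including those without any 1 of controls 2 to 6, heterozygous 3, 5 or 6, or homozygous 3, 4 or 5, with edgeR or DESeq2 adjusted p from 0.000408 to 0.190 over the 26 fits. In all 26 the log2 fold change lay between 0.42 and 0.55.

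The NRF2 regulators showed no called gene of 10 tested. Nfe2l2 was at 142 ± 10.5 CPM in controls, 147 ± 13.2 CPM in heterozygotes and 138 ± 7.79 CPM in homozygotes, with log2 fold changes of 0.08 and -0.04 for heterozygotes and homozygotes. Keap1 was at 61.8 ± 2.13 CPM, 59.3 ± 2.52 CPM and 59.2 ± 4.09 CPM, with log2 fold changes of -0.03 and -0.06. Cul3, the ubiquitin ligase scaffold that works with KEAP1, and Maff, a small partner of NRF2 at DNA, had the lowest p of this list in homozygotes, at log2 fold changes of -0.10 and 0.15 and edgeR adjusted p of 0.693 and 0.730. Transcript levels do not report NRF2 protein or its location.

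Among enzymes of conjugation, reduction and export, 0 of 7 tested genes were called in any comparison. Akr1b8, an aldo-keto reductase, was nearest to the threshold, at 6.03 ± 2.34 CPM in controls, 8.95 ± 1.98 CPM in heterozygotes and 12.3 ± 4.14 CPM in homozygotes. Its log2 fold change in homozygotes was 1.03 (SE 0.24, edgeR adjusted p = 0.0712), with control and homozygous ranges of 3.93 to 9.91 CPM and 7.88 to 19.4 CPM. DESeq2 called it at an adjusted p of 0.00363, as did edgeR without control replicate 4 (0.0167) or without homozygous replicate 5 (0.0425). In heterozygotes the log2 fold change was 0.61 (SE 0.23, edgeR adjusted p = 0.733). Gstm1, a glutathione transferase, was at 0.34 in homozygotes (edgeR adjusted p = 0.635).

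The lists of NADPH supply and glutathione metabolism held 6 and 7 tested genes, with 0 called. Me1, malic enzyme, which makes NADPH and serves fat synthesis, was at 18.3 ± 8.41 CPM in controls, 40.4 ± 28.7 CPM in heterozygotes and 37.8 ± 12.9 CPM in homozygotes. Its log2 fold change was 1.06 (SE 0.37) in homozygotes and 1.18 (SE 0.37) in heterozygotes, at edgeR adjusted p of 0.407 and 0.428. The highest heterozygous library was at 93.0 CPM, and without heterozygous replicate 6 the heterozygous value was 0.76. Idh1, another NADPH source, was at 0.19 in both groups. Gclc, the catalytic subunit of the first enzyme of glutathione synthesis, had log2 fold changes of -0.04 in homozygotes and 0.12 in heterozygotes. The cystine transporter Slc7a11 was low, at 3.41 ± 2.28 CPM in controls, with log2 fold changes of -0.40 in homozygotes and -0.88 in heterozygotes at edgeR adjusted p of 0.841 and 0.939.

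Iron and heme genes had the narrowest range of log2 fold changes in homozygotes among the 8 lists. Of 6 tested, 0 were called, and log2 fold changes in homozygotes ran from -0.09 for Blvrb, a biliverdin reductase, to 0.09 for Fth1, the ferritin heavy chain. Of 23 other antioxidant enzymes, Cat was the only call by edgeR, and Msrb1, a methionine sulfoxide reductase, had the next lowest p in homozygotes, at 0.22 (edgeR adjusted p = 0.635). All 8 genes of selenoprotein synthesis and selenium supply had log2 fold changes below 0 in homozygotes, from -0.24 to -0.02, with 0 called and a median of -0.11, beside -0.0048 over all genes tested. Of all tested genes, 48.1% were above 0 in homozygotes, and whether the 8 genes moved together was not tested. Of these 8, Eefsec, the selenocysteine elongation factor, had the lowest p, at -0.21 (SE 0.08, edgeR adjusted p = 0.492), and Secisbp2, which binds the selenocysteine insertion element, was at -0.08. In heterozygotes 5 of the 8 were below 0, where 47.5% of all tested genes were above 0.

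Genes that produce oxidants gave 0 calls of 7 tested, and 0 had an unadjusted p under 0.05 in any comparison (edgeR). Noxa1, an activator of NADPH oxidase, stood at 21.4 ± 3.73 CPM in controls, 20.9 ± 1.66 CPM in heterozygotes and 23.4 ± 2.74 CPM in homozygotes, with a log2 fold change of 0.13 (SE 0.10, edgeR adjusted p = 0.760) in homozygotes. Nos2, the inducible nitric oxide synthase, stood at 188 ± 75.0 CPM in controls, 164 ± 47.5 CPM in heterozygotes and 147 ± 55.0 CPM in homozygotes, with a log2 fold change of -0.36 (SE 0.30, edgeR adjusted p = 0.793) in homozygotes.

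**Figure D5:**
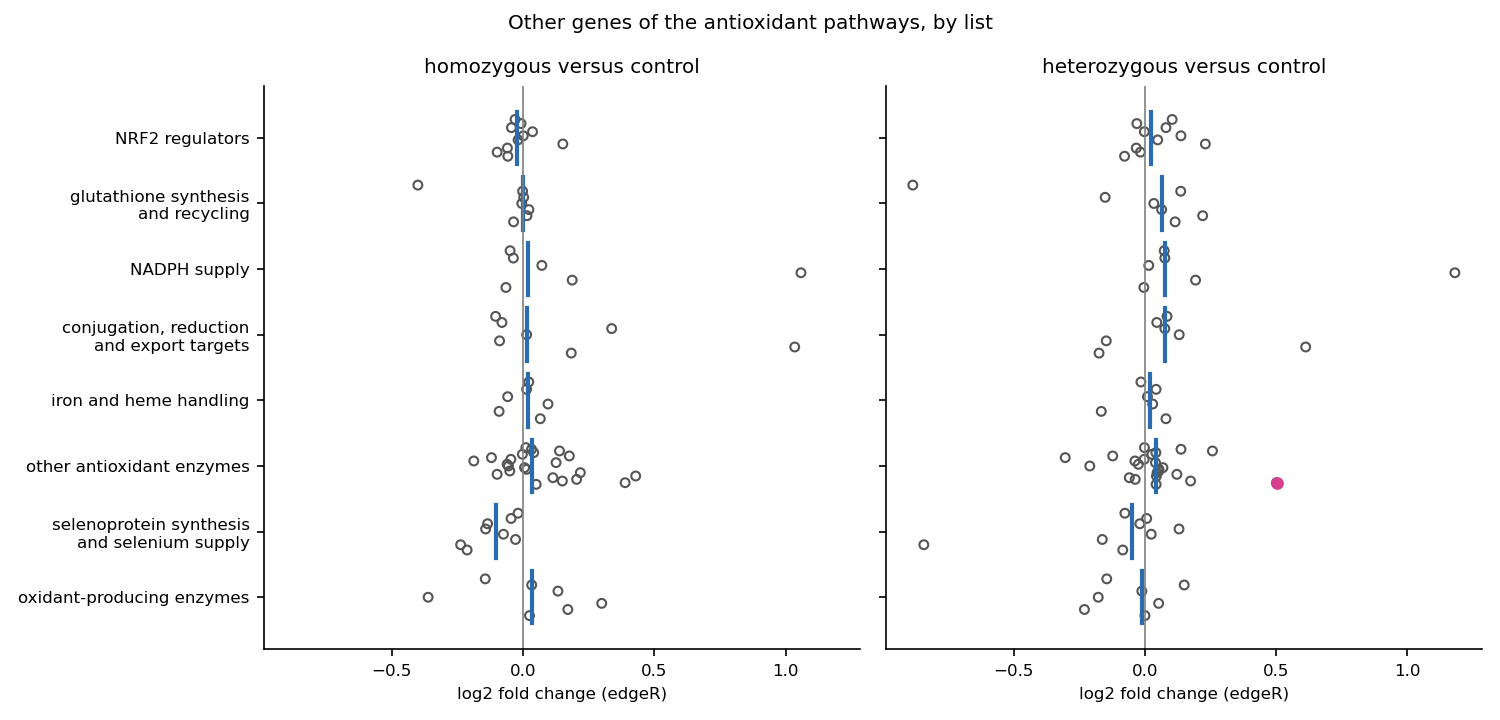
Open circles are the edgeR log2 fold changes of the 74 tested pathway genes, by list, in homozygotes (left) and heterozygotes (right) against controls, and blue bars are list medians. The filled point is Cat in heterozygotes (0.50), the only gene with an adjusted p under 0.05, and the points near 1 are Me1 (1.06 and 1.18) and, in homozygotes, Akr1b8 (1.03).

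Effects were also compared between sexes, with 7 female and 11 male mice. No antioxidant gene passed the test for a genotype effect that differed by sex, with interaction adjusted p from 0.827 to 1.00 by edgeR over the 10 genes and both comparisons with controls, and with 2 or 3 females in a genotype the comparison was limited.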

How the data were processed

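Reads of ileal poly-A RNA were, per the labels and the study's methods, aligned with STAR to GRCm38 and counted per Ensembl gene with featureCounts, keeping uniquely mapped, unambiguous reads. The authors deposited counts and FPKM per library and a table of CPM. The deposited CPM equalled counts scaled by each library's total. FPKM, also made by the authors, served only to compare levels between genes. Strand use in counting is not given in the sources used here. Genes with over 3 CPM in at least 4 libraries were kept (13709), and the 12645 protein-coding ones were tested with edgeR 4.0.16 (R 4.3.3) by quasi-likelihood with TMM scaling, on counts of all 18 libraries and no covariate. Benjamini-Hochberg adjustment ran over all tested genes, with 0.05 as the threshold. The script was tested on simulated data. Alternatives used DESeq2 1.42.0, other scaling, no filter, 12 libraries, sex, a replicate block, fewer libraries and a two-sided exact permutation test of mean CPM over 924 arrangements. For marker scores and correlations, a prior count of 2 was added before taking log2 CPM. The 10 genes and all lists were chosen with earlier results of these data known. Named genes were the 10, pathway genes that were called, the 2 of each list with the lowest p in homozygotes, Nfe2l2, Keap1 and Cat, and the 3 nearest genes by correlation. Certain genes under this rule are not reported here. Libraries came from separate mice. No table of all samples held columns of unknown samples.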

Additional observations from a re-analysis of the deposited data

Results flagged for a closer look

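Gpx2 in heterozygotes was the 1 instance among 30 groups of 6 libraries in which a library lay far from the others. Heterozygous 3 had 192 CPM, and the gap to the next library was 0.642 of the group's range. A gap of that kind is met by chance in about 1 in 20 groups. Without that library the Gpx2 log2 fold change of heterozygotes against controls was -0.03, beside -0.15 with it.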

How the results depend on the processing

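No antioxidant gene was called in any of the 3 comparisons under any fit that was run (0 of 10 each time), whether with DESeq2, another scaling, no expression filter, 12 libraries, sex as a covariate, the replicate block, fewer B cell-rich libraries or each library left out in turn. Of 270 refits of single antioxidant genes other than those leaving out 1 library, 260 kept their direction, and of 540 leaving out 1 library, 503 did. The 540 include fits that left out a library of the genotype not compared, which could hardly turn a direction. For example, Sod1 in homozygotes against controls was at 0.28 in the main fit and at 0.28 without heterozygous replicate 2. Sod1 stayed above its controls in every fit, at log2 fold changes of 0.28 to 0.37 in heterozygotes and 0.21 to 0.34 in homozygotes.

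Counts over all genes moved more. Genes called between homozygotes and controls numbered 136 with DESeq2 and 31 without the 4 libraries highest in B cell score, beside 52. Between heterozygotes and controls they numbered 80 with DESeq2, 23 with 12 libraries, 22 with the replicate block and 15 without the B cell-rich libraries, beside 37. Between homozygotes and heterozygotes they numbered 10 with DESeq2, and 0 with DESeq2 size factors, no filter, 12 libraries, sex, the block or without the B cell-rich libraries, beside 1. Leaving out 1 library gave 43 to 65, 25 to 53 and 0 to 2. Pathway genes called between homozygotes and controls numbered 2 with DESeq2 and 0 to 1 with 1 library left out, beside 0. Between heterozygotes and controls they numbered 0 with library size only, 12 libraries, sex, the replicate block or without the B cell-rich libraries, and 0 to 1 with 1 library left out, beside 1. The cause was not tested.

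Differences close to 0 changed sign. Without the B cell-rich libraries Gpx2, Gpx4 and Prdx1 in homozygotes against controls were at -0.054, -0.013 and -0.046, and Srxn1 between homozygotes and heterozygotes at -0.0073. Gpx1 and Txnrd1 in heterozygotes against controls were at -0.022 and -0.027 with library size only, -0.018 and -0.0017 with sex as covariate, and -0.021 and -0.026 as log2 ratios of mean CPM. Me1 between homozygotes and heterozygotes was at 0.014 with the replicate block. With 1 library left out, the ranges that crossed 0 in heterozygotes against controls were -0.055 to 0.064 for Gpx1, -0.24 to 0.019 for Gpx2, -0.84 to 0.0045 for Hmox1, -0.15 to 0.00050 for Nqo1, -0.0092 to 0.10 for Prdx1, -0.028 to 0.096 for Srxn1 and -0.031 to 0.037 for Txnrd1. In homozygotes against controls they were -0.10 to 0.019 for Gpx1, -0.019 to 0.24 for Gpx2, -0.023 to 0.088 for Gpx4, -0.0074 to 0.069 for Prdx1 and -0.061 to 0.0073 for Txnrd1. Between homozygotes and heterozygotes they were -0.11 to 0.029 for Gpx1, -0.10 to 0.063 for Nqo1, -0.080 to 0.048 for Prdx1, -0.10 to 0.0019 for Sod1, -0.022 to 0.11 for Srxn1, -0.064 to 0.011 for Txnrd1 and -0.27 to 0.30 for Me1. Other such ranges did not cross 0. For homozygotes against controls they included 0.011 to 0.13 for Srxn1, 0.066 to 0.13 for Sod2 and -0.14 to -0.033 for Nqo1. For heterozygotes against controls Sod2 ran from 0.024 to 0.085. For homozygotes against heterozygotes they included 0.11 to 0.32 for Gpx2, -0.21 to -0.077 for Gpx4 and 0.0091 to 0.084 for Sod2.

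The genotypes share replicate numbers, but 9 of 18 same-numbered pairs correlated above 0.1 in their deviations from genotype means, and a library matched its own number best in 3 of 36 instances, so the numbers were not taken to pair the mice. The lowest Hmox1 value rested on 122 reads, and its wide intervals go with a log2 SD of 1.11 between mice of a genotype.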
